A study of Brassica carinata x Brassica rapa with 9 samples.

Results

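APC1 and RanGAP1 are genes of the mitotic cell cycle, and 5 copies of them were followed here through 9 RNA-Seq libraries of a synthetic Brassica allohexaploid (genotype AABBCC). The 5 copies were taken by identifier from a table of 100804 genes, as the genes that the study lists as orthologs of Arabidopsis APC1 (Bra028755 from the A-genome and BniB038334 from the B-genome) and of Arabidopsis RanGAP1 (Bra040432 from the A-genome, BniB007136 from the B-genome and Bol045717 from the C-genome). All 5 were found in the table. A further RanGAP1 copy that the study lists, also from the A-genome, was not analysed here, and no C-genome copy of APC1 is among the listed genes. The libraries came from anthers collected from meiosis to mature pollen (Anther), ovules collected from meiosis to the mature embryo sac (Ovule) and young leaves (Leaf), with 3 libraries of each tissue, and Leaf was the vegetative control of the study. All 3 tissues came from the same kind of plant, a cross of B. carinata and B. rapa with doubled chromosomes. The labels give B. carinata as the male and B. rapa as the female parent, while the methods of the study give the reverse. Each library of Anther and Ovule spans a long developmental window in a whole organ, so cells in division are mixed with cells that are not, and in such bulk samples a larger share of expressing cells and more RNA per cell cannot be told apart.

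APC1 encodes the large scaffold subunit of the anaphase-promoting complex, or cyclosome, an E3 ubiquitin ligase that marks mitotic cyclins and securin for degradation and so lets sister chromatids separate and cells leave mitosis. RanGAP1 encodes the protein that makes the small GTPase Ran hydrolyse its GTP. In plants it sits at the nuclear envelope and, in division, at the forming cell plate, and Ran controls transport through the nuclear pore and assembly of the spindle. In Arabidopsis, loss of APC1 disturbs the embryo sac, and RanGAP1 has been linked to the mitoses that form it. The study names them among candidate genes of female gamete development, which it drew from genes higher in Ovule than in both Leaf and Anther in these same libraries. The direction of those 2 comparisons is therefore not independent evidence for any of the 5 copies and is given as a description. The comparison of Anther with Leaf, and the balance between copies, were not part of that choice. Anther against Leaf still uses the Leaf and Anther libraries on which the choice was made, so it is not fully independent of it.

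Levels are given as FPKM, fragments counted on a gene divided by its length and by the size of the library, which allows genes of different length to be compared. The reads behind each value could be read back from the table. They came to 8675189 to 10153663 reads on genes per Leaf library and 15074044 to 15524847 per Ovule or Anther library. In the study, a much smaller share of clean reads mapped to the reference in Leaf than in Ovule and Anther. The numbers of clean reads were similar between tissues. What the lower mapping in Leaf does to the comparisons with Leaf was not tested. Pearson's r of log2(FPKM + 1) between libraries of the same tissue, across genes, lay between 0.987 and 0.988 for Leaf, between 0.977 and 0.984 for Ovule and between 0.934 and 0.971 for Anther. The Leaf libraries differed by little more than counting noise, with a mean chi-square per gene of 1.65 to 1.99 where counting alone gives about 1, against 34.7 to 38.8 in Ovule and 59.3 to 228 in Anther. As an identity check, 15 tapetum genes (copies of TDF1, AMS and MYB80) summed to between 1592 and 1874 FPKM per Anther library. The same sum lay between 0.914 and 9.13 FPKM for Ovule and between 0.431 and 0.869 FPKM for Leaf, and 11 of them had no read in any Leaf library. In Ovule, 1 of the 15 had no read in any library, and Ovule replicate 3 held the 9.13 FPKM. Among 6 genes of the chromosome axis and synaptonemal complex (copies of ASY1, ASY3 and ZYP1a), which mark meiotic cells, the sum per library was 13.4 to 16.2 FPKM for Ovule, 55.1 to 170.1 FPKM for Anther, where replicate 2 stood highest, and 0.569 to 1.14 FPKM for Leaf, and none of the 6 was at 0 in all libraries of a tissue. Both marker lists were chosen by the study on these libraries, and no markers of leaf cells or of the embryo sac were used.

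The APC1 copies were weakly expressed, and both stood highest in Ovule. The A-genome copy Bra028755 measured 0.399, 0.467 and 0.382 FPKM in the 3 Leaf libraries, 2.27, 1.53 and 1.42 FPKM in the Ovule libraries and 0.709, 0.792 and 0.707 FPKM in the Anther libraries. The 3 tissues did not overlap, with Leaf lowest and Ovule highest. The Ovule libraries spread most, as Ovule replicate 1 stood above the other two. The values rest on 19 to 21 reads per Leaf library, 111 to 183 per Ovule library and 56 to 62 per Anther library, over a gene length of 5184 bases.

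The B-genome copy BniB038334 had Leaf values of 0.612, 0.413 and 0.524 FPKM, Ovule values of 1.88, 2.00 and 1.55 FPKM and Anther values of 0.628, 0.602 and 0.907 FPKM. Each Ovule library stood above each Leaf and Anther library, while the highest Leaf library, replicate 1, lay within the range of Anther. Each Leaf library gave 15 to 26 reads, each Ovule library 98 to 129 and each Anther library 38 to 59, over 4179 bases. Together the 2 copies reached 3.55 ± 0.594 FPKM in Ovule (SD, n = 3), against 1.45 ± 0.147 for Anther and 0.932 ± 0.0692 for Leaf. In Ovule the A- and B-genome copies ranked above 37.0% and 37.6% of the genes expressed there, so APC1 belonged to the lower part of the expressed genes even where it was highest.

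The RanGAP1 copies were at a moderate level in Ovule, lower in Anther and lowest in Leaf. The A-genome copy Bra040432 had Leaf values of 0.733, 0.715 and 0.388 FPKM, Ovule values of 19.2, 16.8 and 18.6 FPKM and Anther values of 7.13, 6.29 and 4.79 FPKM. It had the lowest Leaf level of the 3 RanGAP1 copies, with 12, 10 and 6 reads in the Leaf libraries against 418 to 480 in Ovule.

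The B-genome copy BniB007136 had Leaf values of 1.77, 1.43 and 1.62 FPKM, Ovule values of 23.4, 21.1 and 18.8 FPKM and Anther values of 6.02, 6.07 and 5.26 FPKM. The C-genome copy Bol045717 had Leaf values of 3.92, 3.01 and 4.02 FPKM, Ovule values of 18.3, 17.4 and 19.7 FPKM and Anther values of 8.44, 8.60 and 7.32 FPKM. For each RanGAP1 copy the 3 tissues were separated in all libraries, in the order Leaf, Anther, Ovule. The B-genome copy had 20 to 29 reads per Leaf library and 460 to 587 per Ovule library, and the C-genome copy 42 to 64 and 432 to 479. In Ovule the 3 copies ranked above 85.8%, 88.0% and 86.1% of expressed genes for the A-, B- and C-genome, whereas in Leaf they ranked above 25.2%, 39.7% and 57.0%.

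**Figure D1:**
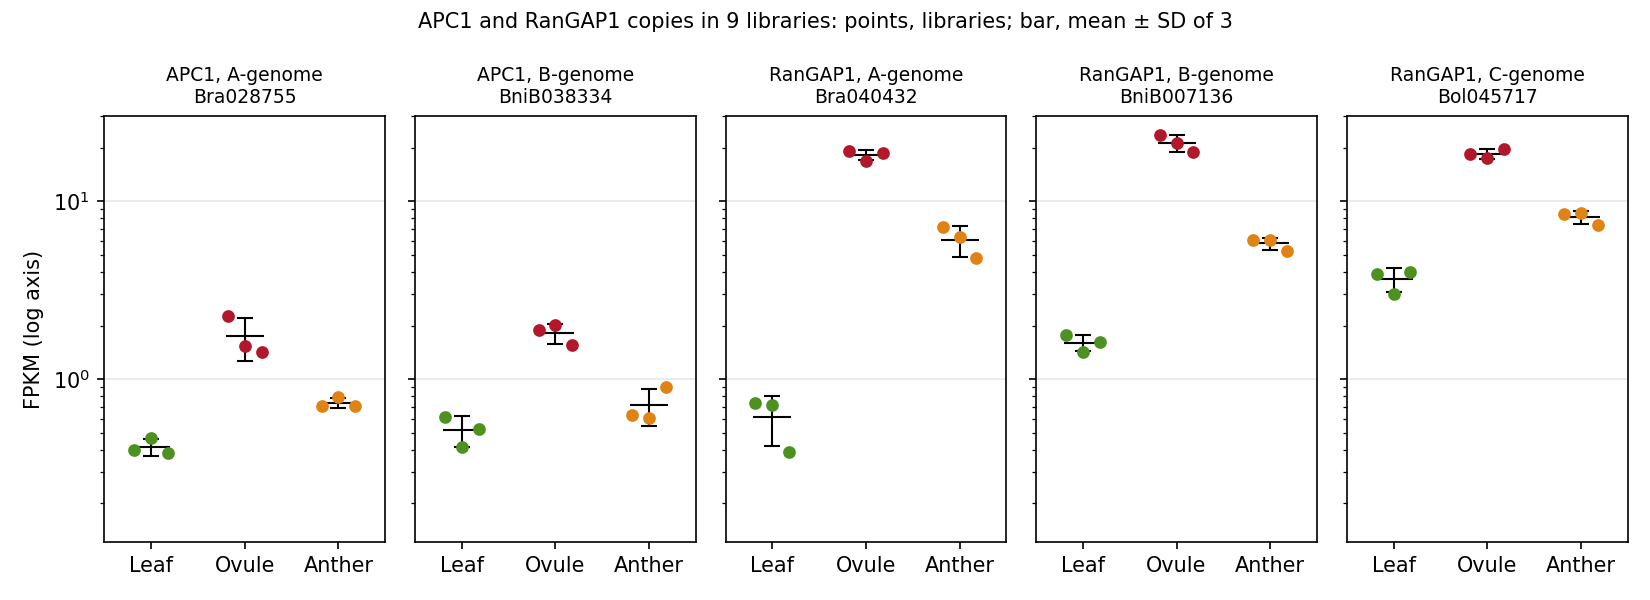
FPKM on a log axis of the APC1 and RanGAP1 copies in each library of Leaf, Ovule and Anther (points), with the mean and SD of 3 libraries (bars). Each Ovule library stood above each Leaf and Anther library for all 5 copies, and in Leaf the 3 RanGAP1 copies ranged from 0.388 to 4.02 FPKM while in Ovule they lay together between 16.8 and 23.4 FPKM.

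The spread between libraries was close to counting noise in Leaf and exceeded it for some copies in Ovule and Anther. Among the 5 copies the chi-square of the reads per degree of freedom, which is about 1 when libraries differ by counting alone, was 0.226 to 1.23 in Leaf. In Ovule it was 6.14 for the RanGAP1 copy BniB007136 and 1.7 to 2.1 for 3 others, and was highest for the APC1 copy Bra028755, whose coefficient of variation of 26.9% compares with 8.49% from counting. In Anther it was 5.76 for the RanGAP1 copy Bra040432 and 0.252 to 2.59 for the other 4. Nothing beyond the study's description as biological replicates says that libraries came from separate plants, so the p-values measure the spread between these libraries.

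Ovule was compared with Leaf to ask which genes rise in the organ that forms the female gametes. All 5 copies were higher in Ovule, by 29.7-fold for Bra040432, 13.2-fold for BniB007136 and 5.06-fold for Bol045717 among the RanGAP1 copies, and by 4.18-fold for Bra028755 and 3.50-fold for BniB038334 of APC1, as ratios of mean FPKM. Each passed the thresholds used here, a fold of 2 or more with a p of 0.05 or less after Benjamini-Hochberg adjustment in limma on log2(FPKM + 0.1). Of the 75038 genes tested, 36.8% were likewise called higher in Ovule and 14.8% higher in Leaf, and in 53.3% every Ovule library was above every Leaf library, as it was for the 5 copies. On that scale, which shrinks changes of genes near 0, Bra040432 changed by a log2 value of 4.72 (standard error 0.24, limma adjusted p = 3.0e-07) and BniB038334 by 1.64 (standard error 0.28, adjusted p = 0.00056). The median of all genes tested lay 0.66 above 0 on the log2 scale in this comparison. After the libraries were rescaled by median-of-ratios factors, which brought that median to 0.075, 21.0% of genes were called higher in Ovule and 21.5% higher in Leaf, and the 5 copies kept their call with ratios of rescaled means of 18.9, 8.34 and 3.21 for the A-, B- and C-genome copies of RanGAP1 and of 2.65 and 2.22 for the A- and B-genome copies of APC1.

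Ovule was compared with Anther to separate the female from the male organ. The 5 copies were again higher in Ovule, by 3.65-fold for BniB007136, 3.00-fold for Bra040432 and 2.28-fold for Bol045717 of RanGAP1 and by 2.54-fold for BniB038334 and 2.36-fold for Bra028755 of APC1. All 5 were called, where 14.3% of genes tested were called higher in Ovule and 14.3% higher in Anther. Every Ovule library was above every Anther library for the 5 copies and for 32.1% of genes tested. On the log2 scale BniB007136 differed by 1.85 (standard error 0.15, limma adjusted p = 1.2e-05) and Bra028755 by 1.11 (standard error 0.27, adjusted p = 0.0087), and the latter was just past the fold threshold of 2. Bra028755 lost its call without Ovule replicate 1, with a log2 fold change of 0.91, and after rescaling, with 0.96, where 11.6% of genes tested were called higher in Ovule and 15.8% higher in Anther. The other 4 copies kept theirs in both cases.

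With a pseudocount of 1 in place of 0.1, both APC1 copies fell below a fold of 2 in both comparisons, at log2 fold changes of 0.94 and 0.89 against Leaf and 0.64 and 0.72 against Anther for the A- and B-genome copies, while the 3 RanGAP1 copies kept their calls. The APC1 calls thus depended on how values near 1 FPKM were treated. Higher in Ovule than in both other tissues were 9.04% of genes tested, and the choice of the genes by the study fixed this direction.

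The 3 comparisons share libraries in pairs, so their values are given side by side. Anther and Leaf were compared as the male organ against the vegetative control, and here the calls of RanGAP1 and APC1 differed on FPKM as deposited. All 3 RanGAP1 copies were higher in Anther, by 9.91-fold for Bra040432, 3.60-fold for BniB007136 and 2.23-fold for Bol045717, while neither APC1 copy was called. That makes 3 of 5 copies, where 38.4% of genes tested were called higher in Anther and 16.9% higher in Leaf. Every Anther library was above every Leaf library for 4 of the 5, all but BniB038334, and for 52.7% of genes tested. On the log2 scale the difference was 3.14 (standard error 0.24, limma adjusted p = 2.9e-06) for Bra040432, 1.79 (standard error 0.15, adjusted p = 4.6e-06) for BniB007136 and 1.14 (standard error 0.15, adjusted p = 7.7e-05) for Bol045717. For APC1 it was 0.70 (standard error 0.27, adjusted p = 0.042 from limma) for Bra028755, which passed the p but not the fold threshold, and 0.39 (standard error 0.28, adjusted p = 0.23) for BniB038334. The median of all genes was 0.66 in this comparison, and relative to it Bra028755 stood at 0.037 and BniB038334 at -0.27, against 2.48, 1.13 and 0.48 for the A-, B- and C-genome copies of RanGAP1. After rescaling, where the median was 0.18 and 26.9% of genes were called higher in Anther and 22.6% higher in Leaf, Bra040432 and BniB007136 kept their calls with log2 fold changes of 2.68 and 1.3, Bol045717 fell below a fold of 2 at 0.64, and BniB038334 turned to -0.045 (standard error 0.28, adjusted p = 0.90 from limma).

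**Figure D2:**
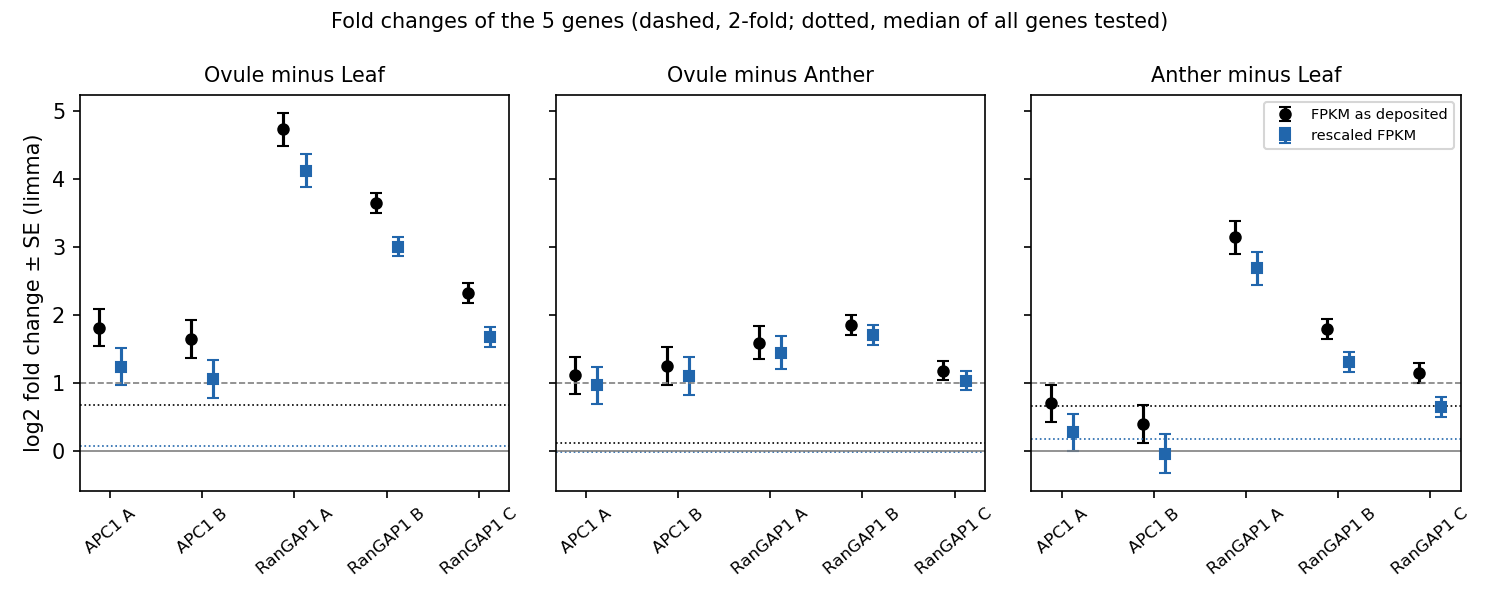
Log2 fold changes with standard errors from limma for the 5 copies in the 3 comparisons, on FPKM as deposited (circles) and on rescaled FPKM (squares), with a dashed line at a fold of 2 and dotted lines at the median of all 75038 genes tested on each scale. The RanGAP1 copies ranged from 4.72 for the A-genome to 2.32 for the C-genome in Ovule minus Leaf, and the APC1 copies stood at 0.70 and 0.39 in Anther minus Leaf.

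The balance between the RanGAP1 copies differed between tissues. In Leaf the C-genome copy Bol045717 made up 62.1% ± 4.26 of the FPKM summed over the 3 copies, the B-genome copy BniB007136 27.4% ± 0.479 and the A-genome copy Bra040432 10.6% ± 3.79 (SD, n = 3). In Ovule the shares were 32.0% ± 2.23, 36.5% ± 3.07 and 31.5% ± 1.09, and in Anther 40.8% ± 1.53, 29.0% ± 1.21 and 30.2% ± 2.72. The Leaf libraries were ordered A, B, C from low to high without overlap, whereas in Ovule the share of the C-genome copy overlapped with both others and that of the A-genome copy, at most 32.6%, lay below the B-genome copy, at least 33.0%. In Anther the A- and B-genome copies overlapped and the C-genome copy was above both in all 3 libraries. These are shares of the 3 copies analysed and not of whole subgenomes, since a further listed copy from the A-genome is not in the sum. A share within a library does not depend on the scale of that library, so rescaling leaves these values as they are.

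**Figure D3:**
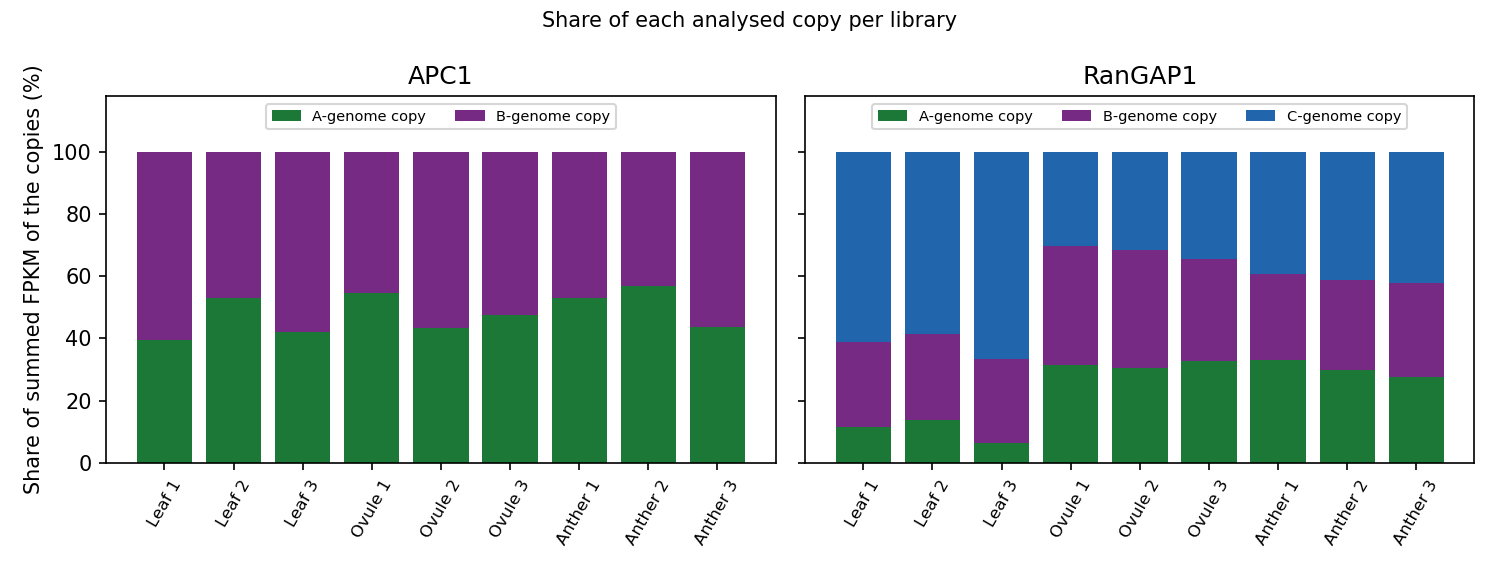
Share of each copy in the FPKM summed over the copies analysed, per library, for APC1 (2 copies) and RanGAP1 (3 copies). The C-genome copy of RanGAP1 held 58.4% to 66.7% in the Leaf libraries and 30.1% to 42.1% in the others, and the A-genome copy 6.45% to 13.9% in Leaf and 27.6% to 33.0% in the others.

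The difference was tested on the log2 ratio of copies within each library, with 0.1 FPKM added to each value. The test was an exact permutation over all ways to assign the 9 libraries to 3 tissues. It counts each Leaf library as a separate sample, although these libraries differed by little more than counting noise. Counting Leaf as 1 sample was not tried for the ratios. The ratio of the A- to the C-genome copy of RanGAP1 stood at -2.43 ± 0.59 for Leaf, -0.022 ± 0.076 for Ovule and -0.43 ± 0.18 for Anther (mean log2 ± SD, n = 3; exact permutation p = 0.0036, the smallest this design allows; 0.0089 adjusted over 5 ratios). The single Leaf libraries had ratios of -2.27, -1.93 and -3.08, and those of Ovule 0.065, -0.050 and -0.080. The shift from Leaf to Ovule came to 2.40 (standard error 0.34), which is 5.29-fold in the ratio of the copies on this scale. Its size rests on the few reads of the A-genome copy in Leaf and on the value added: with 1 FPKM it was 1.51 (exact permutation, adjusted p = 0.0060), and with 0.01 FPKM 2.58.

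The ratio of the B- to the C-genome copy, which rests on more reads in Leaf, stood at -1.13 ± 0.12 for Leaf, 0.19 ± 0.22 for Ovule and -0.48 ± 0.014 for Anther (n = 3; exact permutation p = 0.0036, adjusted 0.0089). All 3 tissues were separated for this ratio, with shifts of 1.32 (standard error 0.15) from Leaf to Ovule and 0.65 (standard error 0.071) from Leaf to Anther. The ratio of the A- to the B-genome copy had means of -1.29 ± 0.47 for Leaf, -0.21 ± 0.17 for Ovule and 0.053 ± 0.19 for Anther (n = 3; exact permutation p = 0.0071, adjusted 0.0089), with Ovule and Anther overlapping. Its shift from Leaf to Anther was 1.35 (standard error 0.29), and 0.74 with 1 FPKM added (exact permutation, adjusted p = 0.0089). Between 2 tissues, 3 libraries against 3 cannot reach a p below 0.1 in a two-sided exact permutation test, and 0.1 was reached for Ovule against Leaf and for Anther against Leaf by each of the 3 ratios of RanGAP1 copies, and for Ovule against Anther by the A to C and the B to C ratios. After adjustment over 15 such comparisons these values were 0.15.

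For APC1 a shift between tissues was not detected. The log2 ratio of the A- to the B-genome copy had means of -0.25 ± 0.35 for Leaf, -0.077 ± 0.32 for Ovule and 0.059 ± 0.34 for Anther (n = 3; exact permutation p = 0.52). The A-genome copy made up 44.9% ± 7.18, 48.6% ± 5.78 and 51.2% ± 6.70 of the 2 copies. The largest difference between tissues was 0.31 (standard error 0.28), between Anther and Leaf (0.12 with 1 FPKM added). This does not show that the balance was equal.

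Summed over the copies analysed, RanGAP1 was more abundant than APC1 in each library, and by more in the reproductive organs. The sums do not hold every copy of either gene, since a further listed RanGAP1 copy and any C-genome copy of APC1 are missing. The log2 ratio of summed RanGAP1 to summed APC1 FPKM stood at 2.53 ± 0.095 for Leaf, 4.0 ± 0.20 for Ovule and 3.69 ± 0.30 for Anther (n = 3; exact permutation p = 0.0071, 0.0089 adjusted over 5 ratios). The 3 RanGAP1 copies summed to 57.8 ± 2.87 FPKM in Ovule, against 5.86 ± 0.649 for Leaf and 19.97 ± 2.28 for Anther. Ovule and Anther overlapped in this ratio, with a difference of 0.31 (standard error 0.21). The genes were chosen by the study as higher in Ovule, but not for the difference between RanGAP1 and APC1.

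**Figure D4:**
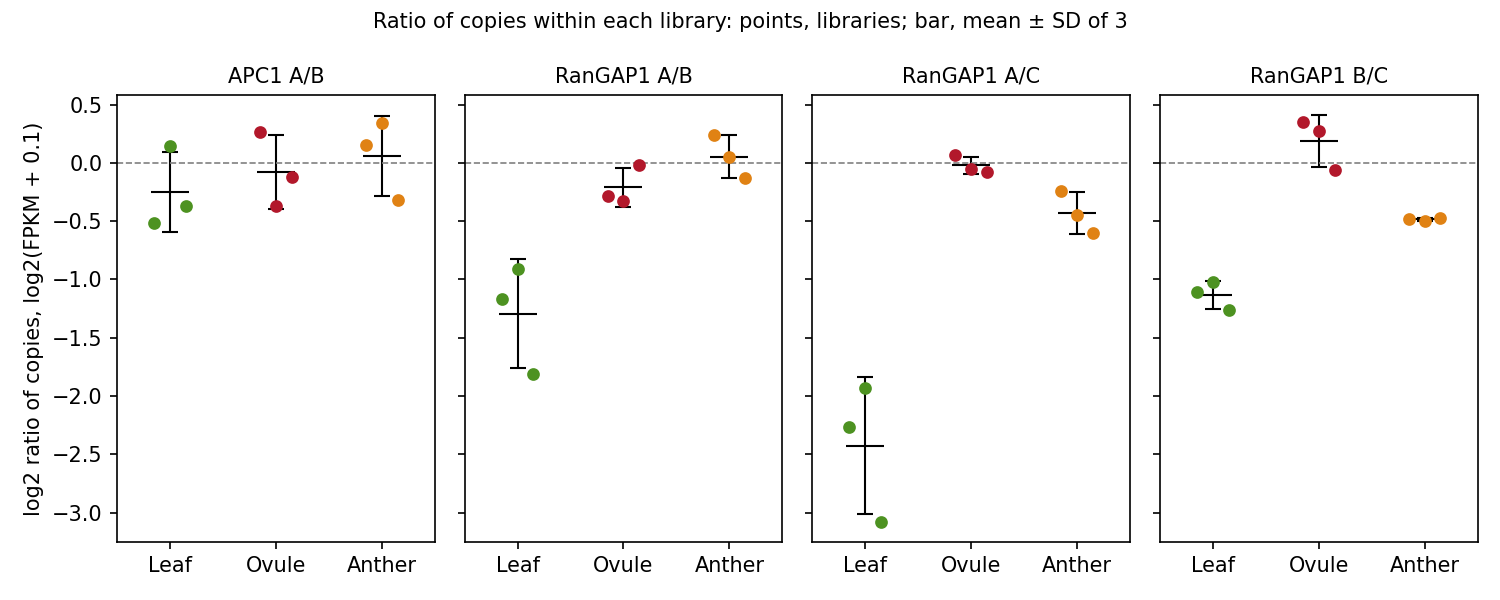
Log2 ratio of 2 copies within each library (points) with the mean and SD of 3 libraries (bars), for APC1 A against B and RanGAP1 A against B, A against C and B against C; the dashed line marks equal levels. The RanGAP1 A to C ratio lay between -3.08 and -1.93 in Leaf and between -0.080 and 0.065 in Ovule, while the APC1 ratio overlapped between all tissues.

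Other genes that the study lists for nuclear division and positioning in the embryo sac stood in the same order of tissues as RanGAP1. The list holds TUBG1 (Bra007622), the gamma-tubulin from which microtubules are nucleated, 5 copies of NACK1, a kinesin needed to build the cell plate, and NOP10 (Bra036475), a protein of the small nucleolar particles that modify ribosomal RNA. All 7 were higher in Ovule than in Leaf, higher in Ovule than in Anther and higher in Anther than in Leaf by limma, where 36.8%, 14.3% and 38.4% of all genes tested were called. The study chose them on these libraries for the Ovule side, so the first 2 counts are not independent evidence. The count for Anther against Leaf shares its libraries with that choice and is not fully independent of it. Their median log2 fold change was 4.45 for Ovule against Leaf, 1.48 for Ovule against Anther and 3.05 for Anther against Leaf, beside medians of 0.66, 0.11 and 0.66 over all genes tested. With 5 of the 7 being NACK1 copies, each of these medians is the value of a NACK1 copy. Mean Leaf levels of the NACK1 copies were 0.0737 to 0.231 FPKM, so their change against Leaf rests partly on the 0.1 added. For Ovule against Leaf, TUBG1 changed by 3.34 and NOP10 by 3.05. TUBG1 reached 16.9 ± 0.213 FPKM in Ovule, against 1.63 ± 0.569 for Leaf and 7.29 ± 0.616 for Anther (SD, n = 3). Of the NACK1 copies, Bol030782 was at 6.13 ± 0.989 FPKM in Ovule, with 0.0737 ± 0.0416 for Leaf and 2.06 ± 0.217 for Anther.

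A second list of the study, of patterning and cell fate, holds 5 genes, 2 copies of AUX1, an auxin import carrier, 2 of AMP1, which acts in Arabidopsis on synergid fate, and NFD1 (BniB000251), a protein of the mitochondrial ribosome needed for fusion of nuclei. All 5 were higher in Ovule than in Leaf and than in Anther, again as chosen by the study and where 36.8% and 14.3% of all genes were, with median log2 fold changes of 2.42 and 1.65. Against Leaf, 2 of the 5 were called higher in Anther (the AUX1 copy Bol020456 and the AMP1 copy Bra014794), near the 38.4% of all genes tested, with a median of 0.65 beside 0.66 over all genes. NFD1 reached 11.2 ± 2.49 FPKM in Ovule, against 2.79 ± 0.677 for Leaf and 3.70 ± 0.767 for Anther. No test of the difference between these lists was made.

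Likeness of pattern was described by Pearson's r between genes. Over the 9 libraries on log2(FPKM + 0.1), BniB007136 and Bol045717 had r of 0.993, which placed Bol045717 at rank 120 of 75037 genes for BniB007136 and BniB007136 at rank 26 for Bol045717. Bra040432 had r of 0.972 with BniB007136 and 0.962 with Bol045717, and the APC1 copies had r of 0.920 with each other, below the 0.97 between Bra028755 and BniB007136. The points share 3 tissues, so that r mostly reflects 3 tissue means, and 349, 314 and 131 genes reached r of at least 0.99 with the A-, B- and C-genome copies of RanGAP1, against 4 and 3 genes for the A- and B-genome copies of APC1. The APC1 values rest on fewer reads, and the part of counting noise in the lower number was not tested.

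The genes nearest in pattern had no names in the sources used here and are given by identifier. For APC1 they were Bol038761 (r = 0.994) and BniB041911 (r = 0.992) for Bra028755, and BniB020049 (r = 0.997) and Bol014407 (r = 0.992) for BniB038334. For RanGAP1 they were BniB048171 (r = 0.998) and BniB021389 (r = 0.998) for Bra040432, BniB008649 and BniB037129 (r = 0.999 for each) for BniB007136, and Bra018303 (r = 0.997) and BniB011601 (r = 0.997) for Bol045717. BniB048171 followed Bra040432 at a higher level, with 45.8 ± 5.18 FPKM in Ovule, against 1.53 ± 0.559 for Leaf and 14.4 ± 2.32 for Anther. BniB008649 had an equally high r at another fold, with 214 ± 27.7 FPKM in Ovule, 0.322 ± 0.0843 for Leaf and 8.84 ± 0.799 for Anther.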

How the data were processed

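The authors cleaned the reads, mapped them by HISAT2 2.1.0 on a joined reference of 3 diploid Brassica genomes (A, B and C), took gene counts from HTSeq 0.6.0 and deposited FPKM for each library. No scaling between libraries is stated, and StringTie 1.3.2 is named in the labels without a role. How reads that fit several copies were counted is not given in the sources used here, so values of single copies depend on it. All values were whole reads times a step per gene and library within 0.01 read. To obtain lengths, the library size was fitted so that lengths became multiples of 3. A common factor was restored for 2133 genes by the same rule. That 99.98% of the lengths were divisible by 3 is thus partly built in and is not independent evidence of coding lengths. Tissues were compared by limma 3.58.1 (R 4.3.3) in 1 model of log2(FPKM + 0.1) over 9 libraries, without a block and with eBayes allowing a trend. It took the 75038 genes that reached 0.5 FPKM in 3 or more libraries, all 5 copies among them, and p-values were adjusted over all of these. Ratios of copies were tested by exact permutation with Python 3.11.15, numpy 2.4.6 and pandas 2.3.3, and figures were drawn with matplotlib 3.10.9. The scripts were tested on simulated data. Named genes are the copies, their 2 nearest genes by Pearson's r each, and 2 lists from the study, with tapetum and meiotic marker lists as a check. The members and lists were chosen with earlier results of these data known. Alternatives tried were a pseudocount of 1 or 0.01, a filter of 1 FPKM or none, rescaled FPKM, a fit of just both tissues of a comparison, the replicate number as block, limma voom on recovered reads with trimmed-mean sizes, Leaf counted as 1 sample and leaving out each library. For the ratios, the alternatives were the pseudocounts, recovered reads per base and leaving out each library. No genome or sequence was used here.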

Additional observations from a re-analysis of the deposited data

How the results depend on the processing

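Of 265 fold changes of single copies under the alternatives, 254 kept their direction and their side of the threshold, 9 lost the call, none gained it (0) and 2 turned. With a pseudocount of 1 the copies called higher numbered 3 of 5 for Ovule against Leaf and 3 of 5 for Ovule against Anther, since both APC1 copies fell below a fold of 2 with adjusted p of 0.00025 to 0.0046 in limma. Those that turned were BniB038334 in Anther against Leaf, at -0.045 after rescaling and -0.10 with voom on recovered reads, where Bol045717 was at 0.62 and lost its call. It also did so with a pseudocount of 1, at 0.98. Leaving out single libraries gave 5 called copies for Ovule against Leaf, 4 to 5 for Ovule against Anther and 3 for Anther against Leaf. The spans of the ratios between the highest and lowest tissue were then 1.09 to 1.54 for RanGAP1 A to B, 2.08 to 2.65 for A to C, 1.24 to 1.44 for B to C, 1.36 to 1.55 for RanGAP1 to APC1 (adjusted exact permutation p of 0.0060 to 0.027 for these) and 0.16 to 0.50 for APC1 A to B. With a pseudocount of 1 the spans were 0.74, 1.51, 1.01, 1.87 and 0.12 in the same order, with every call kept. The study does not state that replicate numbers pair libraries across tissues. Deviations of same-numbered libraries from their tissue means correlated at -0.09 to 0.16, and those of differently numbered libraries at -0.12 to 0.15. These correlations cannot show whether libraries are paired. With the replicate block the called copies stayed at 5, 5 and 3. Depth limits the APC1 copies and the A- and B-genome copies of RanGAP1 in Leaf, with 6 to 29 reads per library.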
